A study of Homo sapiens with 4 samples.

Results

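The SP family of transcription factors was examined in the RNA of OVSAYO cells, a cell line from an ovarian clear cell carcinoma (CCC), after silencing of its founding member SP1 and after exposure to CoCl2, a hypoxia-mimicking agent. Members were the spots whose RefSeq accession belonged to SP1 to SP8, 8 genes in all, a rule that itself uses no measured value. Of these 8 genes, 7 had a probe, and the family held 11 of the 41000 probes and 20 spots per array. SP1 had 2 probes, SP3 had 2 and SP5 had 3, whereas SP2, SP4, SP7 and SP8 had 1 each. SP6 was not analysed here, because no spot carried an accession of this gene. Of the 11 probes, 10 (from 6 genes) exceeded background on every array, and 30234 of the 41000 probes in the whole series did so. Genes with a symbol numbered 17721 in the series.

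Cells received either a negative control siRNA (NS-si) or an siRNA against Sp1 (Sp1-si) and were harvested without treatment or after 4 h with 0.5 mM CoCl2 (NS-si→CoCl2 and Sp1-si→CoCl2). The labels give 40 h of culture after transfection, while a figure legend of the study gives a shorter time. That legend also names a vehicle control for the cells without CoCl2. The labels also name a pool from one supplier as the Sp1 siRNA, while the study's supplement names another supplier. The arrays were made to find genes that CoCl2 turns on through Sp1, and for the SP family they bear on how specific the siRNA was to SP1 and on the levels of its paralogs once SP1 was low. Every group was the same cell line, each was measured on 1 single-colour array, and all 4 arrays lay on 1 slide, so that each ratio below is a difference between a pair of cultures without a replicate, and no test between conditions was run. Of 10 markers of clear cell carcinoma, 10 were well above background on all 4 arrays, PAX8 and NAPSA among them. Of the markers of other cell types, PTPRC of leukocytes, PECAM1 and CDH5 of endothelium, COL3A1 and PDGFRB of fibroblasts and WT1 of serous carcinoma were well above background on 0 arrays, whereas 3 of 4 leukocyte, 1 of 3 endothelial, 1 of 3 fibroblast and 2 of 3 serous markers with a probe were so on all 4.

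SP proteins are zinc finger factors that bind GC-rich elements, the GC box above all, in the promoters of many genes. SP1 and SP3 are found in nearly all cells and recognise the same boxes, SP2 binds mostly at promoters with CCAAT elements, and SP4 is best known in neurons. SP5 is a target of Wnt signalling and represses SP1 target genes, SP7 (osterix) directs bone formation, and SP8 acts in limb and brain development.

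The promoter windows of the members are shown because GC boxes in them are elements that SP proteins could bind and because the members moved apart on the arrays. The windows are the 250 bases before the annotated start, read from RefSeq on GRCh38.p14, 5′ to 3′ on the strand of the gene, and 6 of the 8 genes had such a window. Motifs were searched as letters on both strands, overlapping matches were counted separately, and a match does not show that a site is bound. The SP1 window at chr12:53379926-53380175 (plus strand) held 4 matches to the GC box core GGGCGG, in capitals.
SP1: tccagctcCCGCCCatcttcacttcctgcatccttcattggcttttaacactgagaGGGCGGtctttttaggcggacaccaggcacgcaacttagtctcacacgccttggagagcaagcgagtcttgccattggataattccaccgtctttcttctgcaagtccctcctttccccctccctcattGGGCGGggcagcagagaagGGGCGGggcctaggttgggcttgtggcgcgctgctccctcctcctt
A second SP1 window, which starts further downstream, held 8 GC box cores, and SP1 lies next to SP7 on chromosome 12. The window of SP3 at chr2:173965374-173965623 (minus strand) held 2 GC box cores, in capitals.
SP3: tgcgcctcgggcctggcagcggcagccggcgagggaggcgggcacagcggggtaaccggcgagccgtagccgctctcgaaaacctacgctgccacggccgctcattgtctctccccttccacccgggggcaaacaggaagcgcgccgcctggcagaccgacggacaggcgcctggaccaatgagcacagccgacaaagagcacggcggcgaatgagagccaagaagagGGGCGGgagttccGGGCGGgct
In the window of SP2 at chr17:47895986-47896235 (plus strand), capitals mark the CCAAT element in either orientation, which was matched 8 times.
SP2: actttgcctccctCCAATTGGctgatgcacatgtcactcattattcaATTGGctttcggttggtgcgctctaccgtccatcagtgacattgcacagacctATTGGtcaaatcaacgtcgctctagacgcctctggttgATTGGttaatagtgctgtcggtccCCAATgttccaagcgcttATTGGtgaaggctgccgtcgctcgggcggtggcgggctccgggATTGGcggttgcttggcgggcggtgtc
In the window of SP5 at chr2:170715087-170715336 (plus strand), capitals mark the letters CTTTGAT and CTTTGAA, which TCF/LEF factors of the Wnt pathway bind.
SP5: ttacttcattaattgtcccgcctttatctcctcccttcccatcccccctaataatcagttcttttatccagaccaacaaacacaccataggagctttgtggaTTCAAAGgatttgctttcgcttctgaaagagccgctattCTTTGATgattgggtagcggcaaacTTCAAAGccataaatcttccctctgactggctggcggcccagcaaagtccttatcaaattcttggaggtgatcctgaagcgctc
In the window of SP8 at chr7:20786887-20787136 (minus strand), capitals mark 3 GC box cores.
SP8: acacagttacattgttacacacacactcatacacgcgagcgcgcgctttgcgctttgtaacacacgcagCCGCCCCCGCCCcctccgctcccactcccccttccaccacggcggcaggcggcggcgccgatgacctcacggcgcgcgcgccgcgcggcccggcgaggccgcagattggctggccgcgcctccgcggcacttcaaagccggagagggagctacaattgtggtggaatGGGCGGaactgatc
A GC box core was present in 42.6% of the 35116 RefSeq windows of this length, and 4 or more in 7.63% of them. SP5 was the exception among the 6 genes, with 0 GC box cores, 3 TCF/LEF matches and a GC content of 45.6%, against 55.2% to 83.6% in the windows of the other genes. The SP8 window also held 1 TCF/LEF match, to CTTTGAA, which is not in capitals above. Only 0.0199% of all windows, 7 in number, held 3 or more TCF/LEF matches, and 5.94% held at least 1. SP2 was the 1 window of all 35116 with 8 or more CCAAT matches, while 32% of the windows held at least 1. The SP4 window held 4 GC box cores.

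The values below are the processed signals of the scanner software, in arbitrary units. For each ratio the log2 signals of an array were first scaled to its 75th percentile, a signal of 1143 on the NS-si, 1100 on the Sp1-si, 977 on the NS-si→CoCl2 and 1287 on the Sp1-si→CoCl2 array, so that a ratio is not the plain quotient of the printed signals. The error given with a log2 ratio is the SD between spots within an array pair. It came from the 10 spots of the probe itself for the SP1 probe A_23_P366312. The other probes had 1 spot each, and theirs was the median of the 53 probes with 10 spots that were nearest in signal. Nearness was in the mean log2 signal of the arrays compared. An error borrowed in this way may be too small for a ratio between a dim and a bright signal. The error is technical throughout and does not cover differences between cultures. The Sp1-si→CoCl2 array stood apart from the others. The 95th percentile of its negative control spots was 4.35, against 1.97 to 2.25 on the other arrays. Among 4977 genes with 2 or more probes above background on all 4 arrays, the probes of a gene lay 2-fold or more apart in 5.83% of genes for Sp1-si/NS-si and 3.78% for NS-si→CoCl2/NS-si, but in 16.9% for Sp1-si→CoCl2/NS-si→CoCl2 and 11.2% for Sp1-si→CoCl2/Sp1-si. The part of this array in the ratios below that rest on it was not tested.

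The transcript targeted by the siRNA was much lower in both pairs of arrays. The 10-spot SP1 probe A_23_P366312 had a signal of 553 with NS-si, 39.2 with Sp1-si, 429 with NS-si→CoCl2 and 38.7 with Sp1-si→CoCl2. Its spots ranged from 528 to 584, from 33.5 to 44.2, from 388 to 448 and from 33.8 to 43.9 in the same order, so that the spots of NS-si and Sp1-si arrays did not overlap. The second probe, A_23_P53397, gave 330, 20.4, 272 and 18.2. All 8 of these values were called well above background, including those after silencing.

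Relative to NS-si, 7.36% of the SP1 signal was left for A_23_P366312, a log2 ratio of -3.77 ± 0.11 (SD between 10 spots) and a 13.6-fold lower level. With CoCl2, 6.85% was left, a log2 ratio of -3.87 ± 0.099. For A_23_P53397 the share left was 6.42% without and 5.09% with CoCl2. Under a normexp background correction the reductions were smaller, at log2 ratios of -2.50 and -2.64 for the first probe, and for the second at -2.29 with CoCl2 and smaller than that without it. Here and below, normexp included an offset of 50 added to every signal. Such an offset by itself draws a ratio with a dim side towards no change. Of the 31437 probes compared without a bound for Sp1-si/NS-si, 4 had a lower ratio than the 10-spot SP1 probe and 2 a lower ratio than A_23_P53397. With CoCl2, the numbers were 3 and 1 of 30514. SP1 was thus near the bottom of the array but did not stand alone there. An 8-fold or greater reduction in both pairs was seen for 14 of the 30234 probes above background throughout, and 2 of the 14 were the SP1 probes. The rest were probes of DUSP13A, CENPH, AKR1B10 (2 probes), DNALI1, PLXND1, CILP, NECTIN4, NHLRC3, KLK11, ERP27 and KLB, none of them an SP gene. Whether the siRNA acts on these transcripts itself was not tested.

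SP1 differed little with CoCl2. The log2 ratio of NS-si→CoCl2 to NS-si was -0.14 ± 0.045 for A_23_P366312 and -0.05 ± 0.048 for A_23_P53397, the last of which was 0.05 under normexp. With Sp1-si it was -0.24 ± 0.12 and -0.39 ± 0.16, which became -0.02 and -0.16 without scaling. The order of the levels was NS-si, NS-si→CoCl2, Sp1-si, Sp1-si→CoCl2 for both probes, and of the neighbours in it, NS-si and NS-si→CoCl2 of A_23_P53397 did not differ by more than 2 SD.

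SP3 is the relative closest to SP1 in expression and DNA binding, and 1 of its 2 probes was higher after silencing. A_23_P347198 had a signal of 1586 with NS-si, 3563 with Sp1-si, 1012 with NS-si→CoCl2 and 2397 with Sp1-si→CoCl2. Both Sp1-si signals exceeded both NS-si signals. The log2 ratio of Sp1-si to NS-si was 1.22 ± 0.029, or 2.33-fold, and with CoCl2 0.85 ± 0.033, or 1.80-fold, which became 1.24 without scaling. This probe was lower with CoCl2 in both kinds of cells, at log2 ratios of -0.42 ± 0.036 with NS-si and -0.80 ± 0.030 with Sp1-si.

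The other SP3 probe did not show this pattern. A_24_P58283 had signals of 286, 313, 332 and 285 in the same order. After scaling, this probe was highest with NS-si→CoCl2 and lowest with Sp1-si→CoCl2. Each neighbouring pair of its scaled levels differed by more than 2 SD. Before scaling, its signals with NS-si and Sp1-si→CoCl2 were nearly equal, at 286 and 285. Its Sp1-si/NS-si log2 ratio was 0.18 ± 0.052 without CoCl2 and -0.62 ± 0.048 with it, the latter -0.22 without scaling. The CoCl2 log2 ratio was 0.44 ± 0.046 with NS-si and -0.36 ± 0.053 with Sp1-si, which became 0.22 and -0.13 without scaling. The SP3 probes thus differed by 1.04 in the log2 ratio of Sp1-si to NS-si, whereas the median range among the probes of a gene was 0.19. Which SP3 transcripts each probe detects was not tested.

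SP4 and SP2 were each seen by 1 probe. SP4 (A_23_P71064) was dim, at 8.77 with NS-si, 15.8 with Sp1-si, 9.79 with NS-si→CoCl2 and 14.0 with Sp1-si→CoCl2. These signals were above background, but no neighbouring pair of them differed by more than 2 SD. The log2 ratio of Sp1-si to NS-si was 0.91 ± 0.28, and with CoCl2 0.12 ± 0.31, which were 0.23 and -0.26 under normexp. SP2 (A_23_P381449) had a signal of 323 with NS-si, 381 with Sp1-si, 250 with NS-si→CoCl2 and 702 with Sp1-si→CoCl2. The value on the Sp1-si→CoCl2 array was the high one, and the remaining 3 lay between 250 and 381. Accordingly, the log2 ratio of Sp1-si to NS-si was 0.29 ± 0.051 without CoCl2 but 1.09 ± 0.043, or 2.14-fold, with it, the latter being 0.87 under normexp. The CoCl2 log2 ratio was -0.14 ± 0.049 with NS-si and 0.66 ± 0.039 with Sp1-si, a difference of 0.80 that rests on the array that stood apart.

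Of the 3 SP5 probes, 2 showed the greatest change of the family with Sp1-si relative to NS-si, and in the direction opposite to SP1. The probe A_23_P135381 had a signal of 39.1 with NS-si, 802 with Sp1-si, 10.2 with NS-si→CoCl2 and 276 with Sp1-si→CoCl2. A_32_P183718 gave 30.1, 711, 11.8 and 254. The lower of the Sp1-si levels exceeded the higher of the NS-si levels by 2.65 on the log2 scale for the first and 2.90 for the second probe. The Sp1-si/NS-si log2 ratios were 4.41 ± 0.063 and 4.62 ± 0.066, or 21.3-fold and 24.5-fold. With CoCl2 they were 4.37 ± 0.11 and 4.03 ± 0.11, or 20.6-fold and 16.3-fold. Under normexp these ratios shrank to 2.85 and 3.07 without CoCl2 and to 1.60 and 1.78 with it. Of the 31437 probes compared, 5 and 4 had a higher ratio than these probes without CoCl2, and with CoCl2 3 and 7 of 30514. Both probes were lower with CoCl2 in both kinds of cells. For A_23_P135381 the log2 ratio was -1.72 ± 0.17, or 3.29-fold lower, with NS-si and -1.77 ± 0.039 with Sp1-si, and for A_32_P183718 it was -1.12 ± 0.17 and -1.71 ± 0.043. The ratios with NS-si rest on dim signals and shrank to -0.28 and -0.16 under normexp.

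The third SP5 probe, A_32_P74615, which carries the same accession, showed another pattern and was the brightest of the 3 on every array. Its signal was 3370 with NS-si, 2843 with Sp1-si, 5383 with NS-si→CoCl2 and 1992 with Sp1-si→CoCl2. NS-si→CoCl2 was the highest and Sp1-si→CoCl2 the lowest of the 4 values. Its log2 ratio of Sp1-si to NS-si was -0.19 ± 0.027 without and -1.83 ± 0.031, or 3.56-fold lower, with CoCl2. CoCl2 gave 0.90 ± 0.029 with NS-si and -0.74 ± 0.031 with Sp1-si. The Sp1-si/NS-si ratios of the SP5 probes spanned 4.81 on the log2 scale, and SP5 was the 1 gene of 4977 with probes 4 or more apart in this comparison. Which SP5 transcripts each probe detects was not tested. Probes whose names begin with A_32 had more low ratios on the Sp1-si→CoCl2 array as a class. Of 5189 such probes, 12.7% were at least 2-fold lower with Sp1-si→CoCl2 than with NS-si→CoCl2. The share was 7.67% of 14778 probes whose names begin with A_23 and 9.66% of 10267 whose names begin with A_24. Without that array, the shares lower for A_32, A_23 and A_24 were 6.11%, 3.33% and 2.91% for NS-si→CoCl2/NS-si. For Sp1-si/NS-si they were 4.97%, 5.75% and 4.22%. The name of A_32_P183718, which was higher with Sp1-si, begins with A_32 too. The part of this class in the ratio of A_32_P74615 was not tested.

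SP8 had the lowest CoCl2 ratio of the family. Its probe A_24_P23546 had a signal of 148 with NS-si, 81.3 with Sp1-si, 27.4 with NS-si→CoCl2 and 54.0 with Sp1-si→CoCl2. NS-si was the highest and NS-si→CoCl2 the lowest, with both Sp1-si values between them. The log2 ratio of NS-si→CoCl2 to NS-si was -2.21 ± 0.10, or 4.61-fold lower, and 56 of 31313 probes had a lower one. It shrank to -1.01 under normexp. With Sp1-si it was -0.82 ± 0.093. Silencing gave -0.81 ± 0.071 without CoCl2 and 0.58 ± 0.14 with it, and the latter turned to -0.09 under normexp. SP7 (A_23_P317729) had signals of 1.91, 3.89, 1.68 and 2.55 in the order used above and was well above background on 0 of 4 arrays, so no ratio is given for it. The median of the negative control spots was 1.74, 1.51, 1.58 and 2.36 on these arrays.

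Of the 10 SP probes with a ratio, 3 were higher by 2-fold or more with Sp1-si than with NS-si, where 5.52% of all probes were, and 2 were lower, where 5.87% were. The higher ones were 2 probes of SP5 and 1 of SP3, and the lower ones were the SP1 probes. With CoCl2, 3 were higher (2 of SP5 and 1 of SP2), with a share of 6.31% among all probes, and 3 were lower (2 of SP1 and 1 of SP5), with a share of 9.73%. Without the SP1 probes, the median log2 ratio of the other 8 probes was 0.60 without and 0.71 with CoCl2, beside -0.01 and -0.08 over all probes. Higher by 2-fold in both pairs were the same 2 SP5 probes, as were 3.57% of all probes, and lower in both were the SP1 probes, as were 3.74% of all probes. The Sp1-si/NS-si ratio had opposite signs with and without CoCl2 for 2 of the 10 SP probes (SP3 A_24_P58283 and SP8) and for 25.0% of all probes. These counts are over few probes, of which several share a gene. SP3, the relative with the same binding sites, was higher by 2-fold on 1 of 2 probes without CoCl2 and on 0 of 2 with it.

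For CoCl2 with NS-si, 0 of the 10 SP probes were higher by 2-fold (4.54% of all probes were) and 3 were lower (4.34% were), namely 2 of SP5 and the SP8 probe. With Sp1-si 0 were higher (3.73% of all probes) and 2, both of SP5, were lower (6.31%). Median log2 ratios of the 8 probes outside SP1 were -0.28 with NS-si and -0.77 with Sp1-si, beside 0.02 and -0.03 over all probes. In both kinds of cells, 0 SP probes were higher (2.09% of all probes) and the same 2 SP5 probes were lower (2.14%). Opposite signs were seen for 4 of the 10 SP probes and for 30.2% of all probes. The CoCl2 ratio with Sp1-si minus that with NS-si was 2-fold or more in size for 2 of the 10 probes, at 1.39 ± 0.14 for SP8 and -1.64 ± 0.043 for SP5 A_32_P74615, where 5.93% of probes were that far apart. Under normexp the SP8 ratios were -1.01 with NS-si and -0.56 with Sp1-si, less than 2-fold apart. Without scaling the SP2 ratios were -0.37 with NS-si and 0.88 with Sp1-si, more than 2-fold apart. The comparisons of silencing and of CoCl2 use the same arrays and are not independent of each other.

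**Figure D1:**
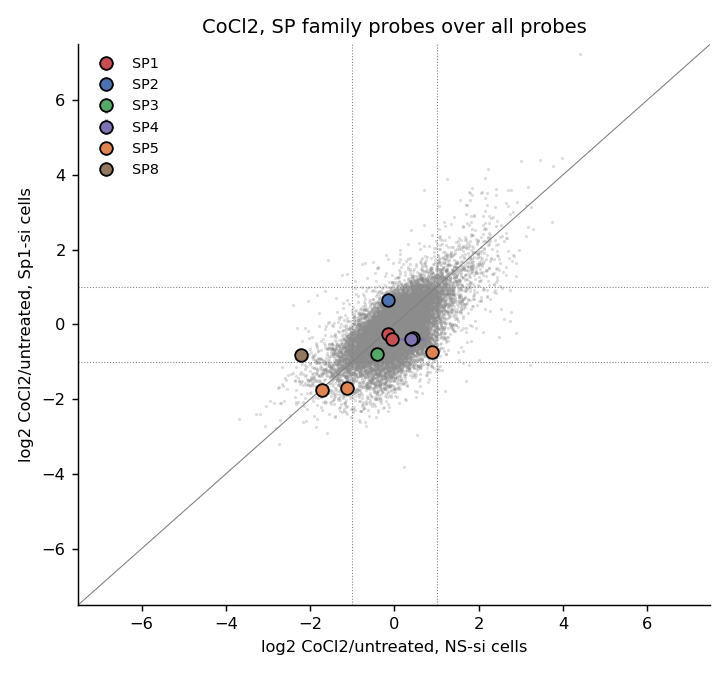
Log2 ratio of CoCl2-treated to untreated cells, with NS-si (x axis) and with Sp1-si (y axis), drawn as in the plot of the Sp1-si/NS-si ratios. SP8 lies to the left at -2.21 and -0.82, 2 SP5 probes lie low on both axes, and SP2, the SP3 probe A_24_P58283, SP4 and the third SP5 probe have ratios of opposite sign in the 2 kinds of cells.

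Genes that work with or near the SP proteins were counted from lists, each gene by its brightest probe. The KLF family, zinc finger relatives that bind similar GC-rich elements, had 17 of 18 members on the array. With Sp1-si relative to NS-si, 3 of 15 with a ratio were higher by 2-fold (KLF12 at 1.29, KLF11 at 1.09 and KLF2 at 1.08) and 0 were lower, where 6.22% of all genes were higher and 6.18% lower, and under normexp 0 KLF genes were past 2-fold. With CoCl2, KLF11 (1.42) and KLF12 (1.19) were higher and KLF16 (-1.13) was lower, of 16, where 7.17% of genes were higher and 8.08% lower. The median of the list was 0.19 without CoCl2 and -0.15 with it, the latter 0.30 without scaling, where 3 KLF genes were higher and 0 lower. KLF4, a factor that reacts to many kinds of stress, had CoCl2 ratios of 1.41 with NS-si and 1.37 with Sp1-si. With NS-si, KLF6 (1.14) and KLF8 (1.01) were higher too, so that 3 of 16 KLF genes were higher there (4.22% of genes; 1 without scaling) and 0 lower (3.54%), and with Sp1-si KLF4 and KLF11 were past 2-fold, 2 of 15 (3.70%) with 0 lower (4.04%). The 2 became 1 with the 75th percentile taken over probes above background throughout, in the authors' value table and under normexp.

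Partners of SP1 and enzymes that modify it were mostly within 2-fold. Of 27, 2 were higher (6.22% of all genes were) and 2 lower (6.18%) with Sp1-si than with NS-si, which became 1 and 1 under normexp. MAPK3, the kinase ERK1, was at 1.77 and KAT2B, a histone acetyltransferase, at 1.34, while cyclin A2 (CCNA2) was at -1.31 and OGT, the enzyme that puts O-GlcNAc on SP1, at -1.12. With CoCl2, MAPK3 (2.35) and KAT2B (1.43) were higher (7.17% of genes) and E2F1 (-1.02) was lower (8.08%), the last within 2-fold under median scaling, and normexp left 1 higher and 0 lower. CoCl2 gave 1 higher gene with NS-si (TAF4B at 1.20; 4.22% of genes, and 0 under normexp) and 1 lower gene with Sp1-si (MED1 at -1.21; 4.04% of genes). Without scaling, these were 0 higher and 2 lower with NS-si and 2 higher and 0 lower with Sp1-si. The medians of the list lay between 0.02 and 0.13, and between -0.10 and 0.47 without scaling.

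Of 30 genes with known GC boxes, 0 were higher and 6 lower by 2-fold with Sp1-si than with NS-si, where 6.22% of all genes were higher and 6.18% lower. The lowest were NQO1, a quinone reductase (-3.79), BIRC5, the apoptosis inhibitor survivin (-2.35), and VEGFA (-1.81), and the other 3 were EGFR (-1.71), RRM2 (-1.23) and MAOA (-1.21). With CoCl2, 0 were higher (7.17% of genes) and 5 lower (8.08%), with BIRC5 at -2.74, NQO1 at -2.56 and EGFR at -1.39, although median scaling gave 2 higher and 5 lower and no scaling 3 higher and 2 lower. At a 1.5-fold threshold the split was less one-sided, with 4 higher and 8 lower without CoCl2 and 3 higher and 9 lower with it. The shares of all genes at that threshold are not given here. The median of the list was -0.12 without CoCl2 and -0.13 with it, the latter 0.27 without scaling. The CoCl2 ratio of VEGFA was 2.34 with NS-si and 2.86 with Sp1-si, and that of NQO1 with Sp1-si was 1.61.

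Wnt target genes were listed because SP5 is one, and LEF1, AXIN2 and SP5 were known to be high in these data when the list was made, so their direction is not independent evidence. SP8 is on this list as well. Of 14 with a ratio among 16 genes, 7 were higher by 2-fold with Sp1-si than with NS-si (6.22% of all genes) and 0 were lower (6.18%), with LEF1 at 5.04, AXIN2 at 4.82 and TCF7 at 2.23. With CoCl2, 7 of 14 were higher (7.17% of genes) and 1 lower (8.08%), with LEF1 at 4.68, AXIN2 at 4.56, DKK1, a secreted Wnt inhibitor, at 2.44 and NKD2 at -1.58. The median was 0.89 without and 0.88 with CoCl2, beside -0.01 and -0.03 over all genes. Under normexp, 6 of 14 were higher without CoCl2, with a median of 0.46, and 5 of 13 with it, with a median of 0.59. CoCl2 with NS-si gave NKD2 as higher (1.12, within 2-fold without scaling) and DKK1 (-2.34) and SP8 (-2.21) as lower, of 13, beside 4.22% and 3.54% of all genes. With Sp1-si 0 of 14 were higher (3.70% of genes) and 2 were lower (4.04%), DKK1 at -1.14 and ZNRF3 at -1.02, both within 2-fold without scaling.

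The genes whose pattern over the 4 arrays came nearest to that of a member were named by the distance between their log2 values relative to NS-si, over 1 sample of each of the 4 conditions, and the other probes of that same member were left out of this ranking. For the 10-spot SP1 probe these were CENPH, a kinetochore protein, at a distance of 0.25, DUSP13A at 0.61, CILP at 0.80, ABCA12 at 0.84 and ERP27 at 0.88. For the SP5 probe A_32_P183718 they were IDO1, an enzyme that breaks down tryptophan, at 0.88, ENTPD3 at 1.21, TRIM22 at 1.49, CASP1 at 1.53 and DACH1 at 1.65. Ratios of Sp1-si to NS-si were -3.97 for CENPH and 4.78 for IDO1, and with CoCl2 -3.74 and 4.13.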

How the data were processed

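RNA of OVSAYO cells was measured on 4 single-colour Agilent 4x44K human arrays, 1 per condition. The authors deposited the intensities that Agilent Feature Extraction 10.5.1.1 wrote, background-subtracted and detrended but not normalized between arrays. The authors' deposited value table also holds intensity values, equal to the processed signal times 1 constant per array. The array design is on hg18, so no coordinates of its probes are given, and the promoter windows are on GRCh38.p14. The study's text names no normalization.

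Non-control spots without outlier flags were put on a log2 scale computed here from the deposited intensities, the 75th percentile of each array was subtracted, and replicate spots were averaged per probe. A probe counted as above background where 50% or more of its kept spots had that call. A ratio with only 1 side above background is a bound, and with neither side no ratio is given. Calls are 2-fold differences. No test was run with 1 array per condition, whose number limits the precision. Accessions were matched to RefSeq symbols for 28463 of 29877 spots with such an accession. Named are all SP probes, the 5 genes nearest in pattern to the 10-spot SP1 probe and to the SP probe outside SP1 with the greatest Sp1-si/NS-si ratio, and list members past 2-fold, the 3 with the greatest change in each direction. The rest of the GC-box genes past 2-fold without CoCl2 and the genes 8-fold lower in both pairs were named after their values were seen. Members and lists were chosen with earlier results of these data known. The calculation was tested on simulated data. Python 3.11.15, numpy 2.4.6, pandas 2.3.3, R 4.3.3 and limma 3.58.1 were used. Probe and siRNA sequences and SP protein sequences were not used here. Some results for genes of the lists are not reported here.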

Additional observations from a re-analysis of the deposited data

Results flagged for a closer look

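For 3 SP probes the CoCl2 ratio had opposite signs in NS-si and Sp1-si cells, each by more than 2 technical SD. The log2 CoCl2 ratio in Sp1-si minus that in NS-si cells was 0.80 for SP2 (A_23_P381449), -0.80 for the SP3 probe A_24_P58283 and -1.64 for the SP5 probe A_32_P74615. With 1 array per condition these differences were not tested. Opposite signs of any size were seen for 30.2% of the 30234 probes above background on all 4 arrays. The share of all probes with opposite signs beyond 2 SD is not given here. All 3 differences use the Sp1-si→CoCl2 array. This array stood apart from the others in its negative control spots and in the spread between probes of a gene. The CoCl2 ratios in NS-si cells, which do not use it, were -0.14 for SP2, 0.44 for the SP3 probe and 0.90 for the SP5 probe. Those in Sp1-si cells, which do, were 0.66, -0.36 and -0.74 in the same order. Without scaling, the ratios were -0.37, 0.22 and 0.68 in NS-si cells and 0.88, -0.13 and -0.51 in Sp1-si cells. The signs thus stayed opposite, but the sizes of the differences depend on the scaling.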

How the results depend on the processing

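No paired analysis was possible because the conditions share only replicate number 1. Of 320 ratios of SP probes recomputed under other settings, 4 crossed 2-fold and 3 changed sign, and all of these arose under normexp on the median signals, chosen after seeing the data, except that SP3 A_23_P347198 with CoCl2 reached 1.24 without scaling. The changes of sign were in ratios within 2-fold. Because normexp was run with an offset of 50, smaller ratios of dim signals under it partly follow from that constant. The log2 ratio of the 10-spot SP1 probe was -2.50 without CoCl2 under normexp. With CoCl2 it was -3.75 under quantile normalization, -3.76 under median scaling, -3.47 without scaling and -2.64 under normexp. The 3 SP probes past 2-fold for CoCl2 in NS-si cells became 1 under normexp, and the 2 in Sp1-si cells became 6 at a 1.5-fold threshold. No other count of SP probes moved by more than 1.5 times. Leaving out the scaling moved the median of all probes by 0.40 for Sp1-si→CoCl2/NS-si→CoCl2, by -0.23 and 0.23 for CoCl2 in NS-si and Sp1-si cells, and by -0.06 for Sp1-si/NS-si, and median scaling moved the first by 0.11. For Sp1-si→CoCl2/NS-si→CoCl2, the shares of all probes higher and lower by 2-fold were 14.5% and 4.55% without scaling and 7.99% and 7.88% with median scaling. Normexp on mean signals, planned at first, was not run because the files used here hold no mean signal. Signal over background limits SP4, SP7 and the SP5 and SP8 ratios that rest on the dim NS-si→CoCl2 values.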
